A study of Mus musculus with 7 samples.

Results

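Lrrc3b, Chrm3, Pdlim3, Pcp4l1, Mcf2l and Cd24a were near silent in the liver endothelium of control mice and were read at above 10 CPM in every library of c-Maf knockout (KO) endothelium. The 6 genes were chosen on their measured values in this same comparison, as genes under 2.5 CPM in every control library and above 10 CPM in every KO library, where CPM are read counts scaled to a common library size. Of 52636 rows of the count table, 15512 passed the filter on low counts and were tested, and 42 of these (0.271%) met both limits. The 6 genes are among those 42. Because the limits were set on control and KO levels, the KO against control difference of these genes is given as a description, without a test.

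The series comprises polyadenylated RNA of endothelial cells sorted by flow cytometry from mouse liver, in 3 libraries of genotype Control and 4 of genotype c-Maf KO. The design text calls the controls wild type. The sources used here give no age, sex, strain, allele or Cre driver. The labels do not say that the libraries came from separate animals, so the p-values reflect library-to-library spread only, and that spread may be technical. The libraries are numbered here as control 1 to 3 and KO 1 to 4. Control 3 and KO 3 carry lane 4 in their labels and the other 5 libraries carry lane 5.

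c-Maf, a transcription factor of the large Maf family, binds DNA through a basic region and a leucine zipper. It is known for roles in lens, kidney and lymphoid cells and for a part in the identity of liver sinusoidal endothelium. The 6 genes do not form a pathway. Their usual sites of expression lie mostly outside the endothelium: Lrrc3b in brain, Chrm3 in smooth muscle, exocrine glands and brain, Pdlim3 in skeletal and cardiac muscle, Pcp4l1 in brain, Mcf2l in brain and several other tissues, and Cd24a in immature B cells, neutrophils, red cell precursors, neural progenitors and many epithelia. In bulk RNA, more cells of a type and more RNA per cell cannot be told apart.

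Since the genes shared a change from near 0 to expression, the bases just before the outermost annotated start of 4 of them are shown here, 150 bases each, from the RefSeq promoter table on GRCm38.p6. The stretch of Lrrc3b is chr14:15438988-15439137 on the minus strand, and that of Chrm3 is chr13:10360848-10360997 on the minus strand. The stretch of Pdlim3 is chr8:45885311-45885460 on the plus strand, and that of Pcp4l1 is chr1:171196269-171196418 on the minus strand. Each is printed from 5′ to 3′ along the strand of its gene, and capitals mark the one match of a cAMP response element, TGACGTCA, which was searched for after the sequences had been seen.
Lrrc3b: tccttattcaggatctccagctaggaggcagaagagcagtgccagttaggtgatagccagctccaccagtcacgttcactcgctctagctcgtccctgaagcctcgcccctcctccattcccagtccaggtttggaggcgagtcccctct
Chrm3: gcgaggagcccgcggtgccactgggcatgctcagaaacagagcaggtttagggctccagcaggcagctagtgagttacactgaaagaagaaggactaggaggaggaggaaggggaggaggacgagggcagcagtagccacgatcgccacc
Pdlim3: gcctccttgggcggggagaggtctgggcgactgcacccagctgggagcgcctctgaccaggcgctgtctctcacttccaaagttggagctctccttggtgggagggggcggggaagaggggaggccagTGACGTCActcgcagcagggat
Pcp4l1: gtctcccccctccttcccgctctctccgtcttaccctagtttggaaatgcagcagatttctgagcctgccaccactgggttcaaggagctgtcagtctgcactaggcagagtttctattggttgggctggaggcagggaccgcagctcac

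Windows of 300 bases, from 250 before to 50 after a RefSeq start, were searched on both strands for 5 motifs. The table held windows for 5 of the 6 genes, with 6 alternative windows for Mcf2l, and 32851 windows in all. TGCTGAC, a part of the Maf recognition element, was found in 4.67% of all windows. Among these genes it was found in that of Pcp4l1, where it begins 35 bases after the start. Its shorter form TGCTGA, which every TGCTGAC also contains, was found in 19.5% of all windows, in that of Pcp4l1 at the same place and in 2 of the 6 windows of Mcf2l. The AP-1 core TGACTCA was found in 5.2% of all windows and in none of the 10 windows of these genes. TATAAA was found in 13.6% of all windows and, here, in that of Pcp4l1, beginning at the first transcribed base. TGACGTCA, which reads the same on both strands, was found in 1.79% of all windows and in that of Pdlim3, 48 bases before the start. These matches describe letters only, and the absence of a match in a window says nothing of the factor.

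The windows also differed in their content of CpG. The ratio of observed to expected CpG was 0.373 for Lrrc3b and 0.381 for Pcp4l1, both close to the median of all windows, 0.384. The ratio was higher for Chrm3, 0.458, and for Pdlim3, 0.577. The windows of Mcf2l ran from 0.176 to 0.671. None of the 5 motifs was present in the windows of all 5 genes.

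Maf itself was read at 1664, 2088 and 2147 CPM in controls 1 to 3 and at 28.86, 158.9, 124.5 and 37.71 CPM in KO 1 to 4. The KO libraries retained 1.47%, 8.08%, 6.33% and 1.92% of the control mean, in that order. Which part of the gene was removed is not given in the sources used here. Libraries held 24772716 to 32960007 counts, and 3 counts, taken here as the limit for a count of 0, correspond to 0.0873 to 0.132 CPM. The markers of liver sinusoidal endothelium, all 10 detected, summed to 37900 to 42201 CPM in controls and to 8056 to 13284 CPM in KO libraries, and the 9 pan-endothelial markers to 18491 to 20509 and 11490 to 15724 CPM. Among the KO libraries, KO 1 was the highest in hepatocyte transcripts, followed by KO 4. The 10 hepatocyte markers summed to 287 to 336 CPM in controls and to 1444, 363, 459 and 719 CPM in KO 1 to 4. Of 15512 genes tested, 3561 (23%) rose and 3448 (22.2%) fell at an adjusted p under 0.05 by edgeR's quasi-likelihood test. In 3974 genes (25.6%) every KO library lay above every control library.

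**Figure D1:**
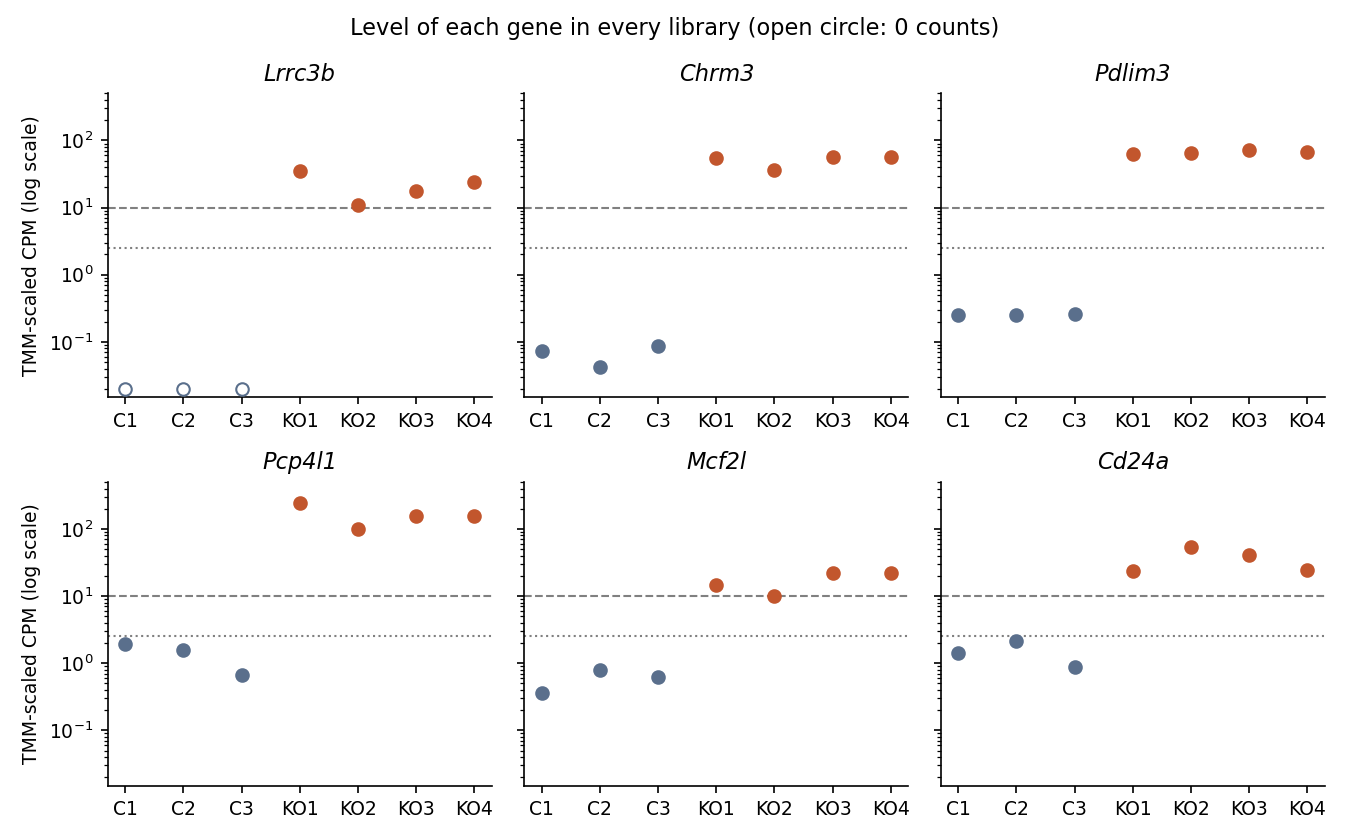
TMM-scaled CPM of each of the 6 genes in the 3 control (C1 to C3, blue) and 4 KO libraries (KO1 to KO4, red), on a log scale, with open circles for 0 counts; the dotted line is the control limit of 2.5 CPM and the dashed line the KO limit of 10 CPM. All control points lie below the dotted line and all KO points above the dashed line, with Mcf2l in KO 2 at 10.16 CPM the closest to it.

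Lrrc3b (ENSMUSG00000045201, chr14:15357515-15438987, minus strand, GRCm38, protein-coding) encodes a leucine-rich repeat protein that spans the membrane, known from brain. It had 0 counts in each of the 3 controls and 995, 336, 597 and 807 counts in KO 1 to 4. These correspond to 35.19, 10.94, 17.37 and 23.81 CPM. KO 1 held 3.22 times the level of KO 2, the widest spread of the 6 genes in the KO group, and KO 2 lay just above the 10 CPM limit. The KO mean was 21.8 ± 10.3 CPM (SD, n = 4). Against 3 counts per control library, Lrrc3b was 179-fold higher in KO, a lower bound that rests on this chosen limit.

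Chrm3 (ENSMUSG00000046159, chr13:9875486-10360847, minus strand, protein-coding) encodes the M3 muscarinic acetylcholine receptor, a receptor coupled to Gq that raises calcium in smooth muscle and gland cells. It had 2, 1 and 2 counts in controls 1 to 3 and 1546, 1126, 1922 and 1934 counts in KO 1 to 4. The KO counts correspond to 54.68, 36.66, 55.93 and 57.07 CPM. KO 1, 3 and 4 lay close together and KO 2 lay apart below them. The mean went from 0.0674 ± 0.0235 CPM (SD, n = 3) to 51.1 ± 9.67 CPM (SD, n = 4), a ratio of means of 758. The ratio of pooled counts was 762 with a 95% exact counting interval of 326 to 2348, which is wide because the controls held 5 counts in all.

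Pdlim3 (ENSMUSG00000031636, chr8:45885461-45919548, plus strand, protein-coding) encodes a protein with a PDZ and a LIM domain that binds alpha-actinin at the Z-discs of muscle. It had 7, 6 and 6 counts in controls 1 to 3 and 1794, 1973, 2484 and 2317 counts in KO 1 to 4. The KO levels were 63.46, 64.23, 72.29 and 68.37 CPM. This was the most even of the 6 genes, with a highest KO library 1.14 times the lowest. The mean was 0.256 ± 0.00674 CPM (SD, n = 3) in controls and 67.1 ± 4.08 CPM (SD, n = 4) in KO, a ratio of 262 (95% exact counting interval of the pooled ratio 168 to 437).

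Pcp4l1 (ENSMUSG00000038370, chr1:171173262-171196268, minus strand, protein-coding) encodes a small protein with an IQ motif, a relative of the calmodulin-binding Purkinje cell protein 4, and is known from brain. It had 53, 38 and 15 counts in controls 1 to 3, and 6996, 3044, 5268 and 5298 counts in KO 1 to 4. Control levels were 1.93, 1.582 and 0.6579 CPM, and KO levels 247.5, 99.1, 153.3 and 156.3 CPM. KO 1 was high and KO 2 low, and the lowest KO library held 51.4 times the level of the highest control. The mean went from 1.39 ± 0.657 (SD, n = 3) to 164 ± 61.5 CPM (SD, n = 4), a ratio of 118, with a counting interval of the pooled ratio of 93.8 to 139.

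Mcf2l (ENSMUSG00000031442, chr8:12873806-13020905, plus strand, protein-coding) encodes a guanine nucleotide exchange factor of the Dbl family that acts on small GTPases. It had 10, 19 and 14 counts in controls 1 to 3 and 414, 312, 769 and 744 counts in KO 1 to 4. The levels were 0.3641, 0.7911 and 0.614 CPM in controls and 14.64, 10.16, 22.38 and 21.95 CPM in KO. KO 3 and KO 4 were the high libraries and KO 2 the low one. The mean was 0.59 ± 0.215 CPM (SD, n = 3) in controls and 17.3 ± 5.93 CPM (SD, n = 4) in KO, a ratio of 29.3 (counting interval of the pooled ratio 22.5 to 42.1). Mcf2l sat at the edge of the rule: after rescaling without KO 1 or without KO 4, its lowest KO level was 9.937 or 9.898 CPM, below the limit.

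Cd24a (ENSMUSG00000047139, chr10:43578284-43584265, plus strand, protein-coding) encodes a small, heavily glycosylated protein held to the membrane by a lipid anchor. It had 39, 52 and 20 counts in controls 1 to 3 and 672, 1664, 1418 and 825 counts in KO 1 to 4. The levels were 1.42, 2.165 and 0.8772 CPM in controls and 23.77, 54.17, 41.26 and 24.34 CPM in KO. KO 2 was the highest library, where it was the lowest for Lrrc3b, Chrm3, Pcp4l1 and Mcf2l. The mean was 1.49 ± 0.647 CPM (SD, n = 3) in controls and 35.9 ± 14.6 CPM (SD, n = 4) in KO, a ratio of 24.1 with a counting interval of 19.9 to 29.3. How the counting treated reads shared with near-identical copies of this gene is not given in the sources used here.

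Per kilobase of exon, the scale on which levels of different genes can be set side by side, the KO level was highest for Pcp4l1, at 104 ± 39 CPM per kb (SD, n = 4). It was higher there than in 97.8% of genes tested. Cd24a (13.9 ± 5.68), Pdlim3 (13 ± 0.793), Lrrc3b (10.8 ± 5.11) and Chrm3 (8.17 ± 1.55 CPM per kb) followed. Among these 4, neighbours in the order did not differ beyond their SDs, and all 4 lay between percentiles 65 and 77.4 of all genes tested. Mcf2l was lowest, at 1.35 ± 0.465 CPM per kb, a level that 28.8% of genes tested did not reach. The length used was that of all annotated exons of a gene merged, 12760 bases for Mcf2l. A single transcript can be shorter, so the level of Mcf2l per kb may be read too low. On this scale the 6 genes ranged from a low to a high level in KO cells.

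**Figure D2:**
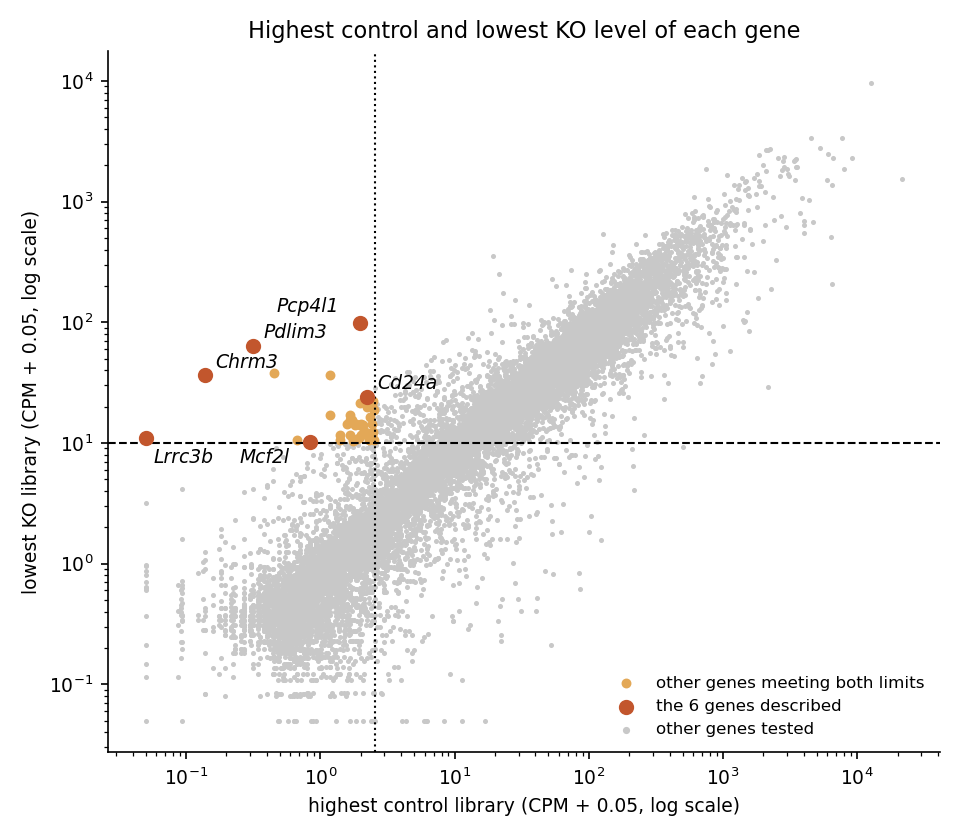
Highest control level (x axis) against lowest KO level (y axis) for the 15512 genes tested, as CPM + 0.05 on log scales; red points are the 6 genes, orange points the other 36 genes in the upper left corner that meet both limits (dotted line 2.5 CPM, dashed line 10 CPM) and grey points all others. Lrrc3b, Chrm3 and Pdlim3 lie farthest left, and Mcf2l and Lrrc3b lie just above the dashed line.

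Of the 15512 genes, 4036 were under 2.5 CPM in every control library, and 42 of these exceeded 10 CPM in every KO library. The reverse, above 10 CPM in every control and under 2.5 CPM in every KO library, was met by 3 genes. By fitted log2 fold change the 6 genes ranked 1, 2, 3, 5, 8 and 11 among the 42, in the order in which they were named at the outset. The place of Lrrc3b depends on the fit, since its controls hold 0 counts: its lower bound, 7.48 on the log2 scale, lies below the fitted values of Chrm3 (9.48), Pdlim3 (8.01) and Gdf10 (7.49). The other genes within the first 11 were Gdf10, Ly6c1, Aplnr, Slc43a1 and Mycn. At the control limit the nearest genes inside were Nos2, with a highest control of 2.476 CPM, and Klhl23, with 2.456 CPM, while Rtn4rl1 and Fignl1 lay just outside, at values that round to 2.5 CPM. At the KO limit the nearest inside were Mcf2l, with a lowest KO library of 10.16 CPM, and Knl1, with 10.36 CPM. Kif14, at 9.8 CPM, and Cenpn, at 9.72 CPM, lay just outside.

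The KO libraries varied more in 5 of the 6 genes than in most genes read in KO cells. Over the 9187 genes with a KO mean above 10 CPM, the coefficient of variation among the 4 KO libraries had a median of 10.5% (quartiles 7.14% and 15.4%). It was 47.4% for Lrrc3b, 40.8% for Cd24a, 37.5% for Pcp4l1, 34.3% for Mcf2l and 18.9% for Chrm3, all above the upper quartile. Pdlim3, at 6.08%, lay below the lower quartile. The 9187 genes cover every level above 10 CPM and were not matched in level to the 6 genes.

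The order of the KO libraries was not shared by the 6 genes. Lrrc3b and Pcp4l1 were highest in KO 1, followed by KO 4, KO 3 and KO 2, the exact reverse of the order of the remaining Maf level, although KO 3 and KO 4 differed little for Pcp4l1 (153.3 and 156.3 CPM). Of all genes tested, 920 (5.93%) had that order. Cd24a had the order of the Maf level itself, highest in KO 2 and lowest in KO 1, as did 695 genes (4.48%). Chrm3, Pdlim3 and Mcf2l had neither order. The hepatocyte marker sum given above had the same order as Lrrc3b and Pcp4l1, and so did the sum of the 12 striated muscle markers, at 18.2, 9.12, 11.8 and 14.9 CPM in KO 1 to 4, and the erythroid sum, at 53.2, 22.9, 23.1 and 37.9 CPM. The part of these cells, and of the remaining Maf, in the spread of Lrrc3b, Pcp4l1 and Cd24a was not tested.

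**Figure D3:**
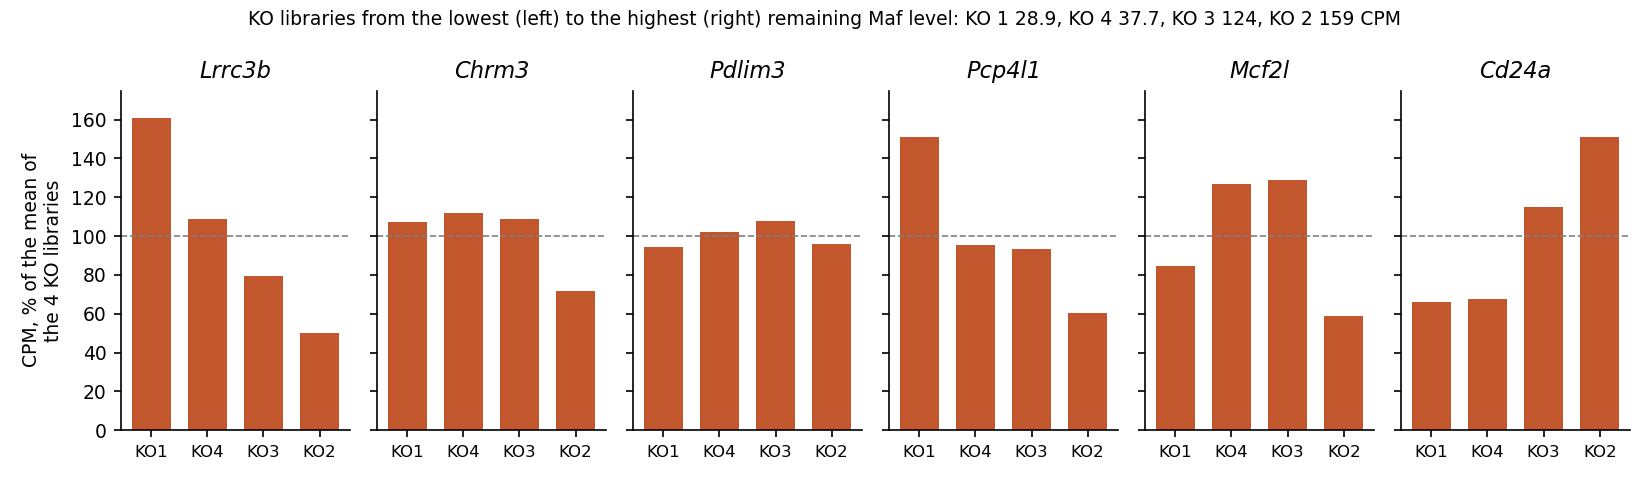
CPM of each gene in the 4 KO libraries as a percent of their mean (bars, starting at 0; dashed line 100%), with the libraries ordered from the lowest to the highest remaining Maf level. Bars descend for Lrrc3b (161% in KO 1 to 50.1% in KO 2) and Pcp4l1 (151% to 60.4%), ascend for Cd24a (66.2% to 151%), and stay between 94.6% and 108% for Pdlim3.

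Markers of the tissues in which the 6 genes are usually found were read beside them. Of 10 neuronal markers, Snap25, Elavl4, Nefl and Nefm had 0 counts in all 7 libraries, 1 rose and 1 fell, and the sum was 18.9 to 27.6 CPM in controls and 7.82 to 12.5 CPM in KO. Most of that sum was Rbfox3, which fell 2.86-fold. Of 7 glial markers, Sox10 had 0 counts and 1 of the 2 tested rose. Their sum was 1.64 to 2.59 CPM in controls and 2.12 to 3.87 CPM in KO. Tubb3, a neuronal tubulin, was the one that rose, 5.17-fold to 1.41 ± 0.584 CPM, and the median log2 fold change of the 4 neuronal markers tested was 0.86. The part of neuronal or glial cells in the levels of Lrrc3b and Pcp4l1 was not tested.

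For Pdlim3, the 12 striated muscle markers summed to 6.4 to 6.95 CPM in controls and 9.12 to 18.2 CPM in KO. Myh1 and Tnnt3 had 0 counts in all libraries, and Ckm, Tnnt2, Myl2, Mb, Actc1 and Myh7 had 7 or fewer counts over all 7. Tnni3, a cardiac troponin subunit, rose 3.55-fold, from 2.72 ± 0.275 CPM (SD, n = 3) to 9.67 ± 3.45 CPM (SD, n = 4). Myh6, a cardiac myosin heavy chain, was also near silent in controls and rose 144-fold, from 0.0146 ± 0.0253 to 2.58 ± 1.12 CPM. Des, the muscle intermediate filament desmin, fell 3.68-fold. The part of muscle cells in its level was not tested.

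For Chrm3, the 7 smooth muscle markers summed to 120 to 156 CPM in controls and to 133 to 150 CPM in KO. Nearly all of it was Smtn, and none of the 3 markers tested rose or fell. The 7 exocrine pancreas markers summed to 6.62 to 10.3 CPM in controls and 1.49 to 2.71 CPM in KO. Prss2, Pnlip and Amy2a2 had 0 counts throughout, and Cela1, the only marker tested, fell 4.47-fold. For Cd24a, the 7 B cell markers summed to 2.24 to 4.33 CPM in controls and 1.57 to 2.72 CPM in KO. The 8 neutrophil markers summed to 1.13 to 4.78 CPM in controls and 0.944 to 4.78 CPM in KO, with Elane at 0 counts, and the 8 biliary markers to 1.75 to 14.4 and 2.34 to 9.13 CPM. The 10 erythroid markers, 9 of them in the table, summed to 24.4 to 46.6 CPM in controls and to 53.2, 22.9, 23.1 and 37.9 CPM in KO 1 to 4. KO 2 and KO 3, the libraries highest in Cd24a, were the lowest of the KO group in erythroid transcripts. Epor, which fell 1.91-fold, made up much of the erythroid sum. The median log2 fold change of the 6 erythroid markers tested was 1.65, and the globin Hbb-bs, at 3.41 ± 2.65 CPM in controls and 11.6 ± 10.2 CPM in KO, did not pass. Only 3 of the 7 B cell, 2 of the 8 neutrophil and 3 of the 8 biliary markers were tested. None of these, and none of the 6 tested erythroid markers, passed as a rise. The part of these cells in the level of Cd24a was not tested.

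The relatives and partners of the 6 genes were not chosen by the limits and were tested. Of 79 genes on 6 lists, 65 were tested, 15 rose, 25 fell and 25 did not pass, with a median log2 fold change of -0.2, against 0.04 over all genes tested. The share that rose and the share that fell can be read against 23% and 22.2% of all genes. 

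The family of Lrrc3b showed the opposite pattern in its other detected member. Lrrc3, a leucine-rich repeat membrane protein like Lrrc3b, fell 5.15-fold, from 7.94 ± 0.44 CPM (SD, n = 3) to 1.54 ± 0.202 CPM (SD, n = 4; log2 fold change -2.37, SE 0.17, edgeR adjusted p = 2.07e-05). Lrrc3c had 0 counts in all 7 libraries.

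Among the muscarinic receptors, Chrm3 stood alone in level. Chrm2, the M2 receptor known from the heart, rose 3.7-fold but only from 0.247 ± 0.179 to 0.914 ± 0.183 CPM (edgeR adjusted p = 0.00913). Chrm1 had 10 counts and Chrm4 21 counts over all libraries, and Chrm5 had 0. The machinery of acetylcholine synthesis and release was not detected: Chat, which makes acetylcholine, and Slc5a7, which takes up choline, had 0 counts, and the vesicular transporter Slc18a3 had 1. Ache, the enzyme that cleaves acetylcholine, rose 6.66-fold, from 16.8 ± 8.16 to 112 ± 19.8 CPM (log2 fold change 2.74, SE 0.29, edgeR adjusted p = 0.000124). Its relative Bche rose 2.52-fold to 0.861 ± 0.4 CPM, a call that was lost in 7 of 17 alternative settings.

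Downstream of the M3 receptor the changes were mixed. Of the 4 alpha subunits of the Gq class, Gna14 fell 10.9-fold, from 8.98 ± 0.839 to 0.818 ± 0.525 CPM (edgeR adjusted p = 0.000238). Gnaq, the most usual partner of the receptor, fell 1.87-fold to 86.5 ± 14.6 CPM, and Gna11 fell 1.36-fold, a call lost in 4 of 18 settings, while Gna15 did not pass. Of the phospholipases C beta, which release inositol trisphosphate, Plcb1 fell 1.91-fold and Plcb4 fell 1.41-fold, Plcb3 rose 1.45-fold and Plcb2 did not pass. Of the inositol trisphosphate receptors of the calcium store, Itpr2 fell 2.13-fold and Itpr1 fell 1.7-fold, whereas Itpr3 rose 1.41-fold. Nos3, which makes nitric oxide in endothelium when calcium and calmodulin activate it, was 1.41-fold higher and passed the test, from 233 ± 16.1 to 328 ± 17.4 CPM. Over the whole list of 15 tested genes, 6 rose and 7 fell, with a median log2 fold change of -0.44.

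**Figure D4:**
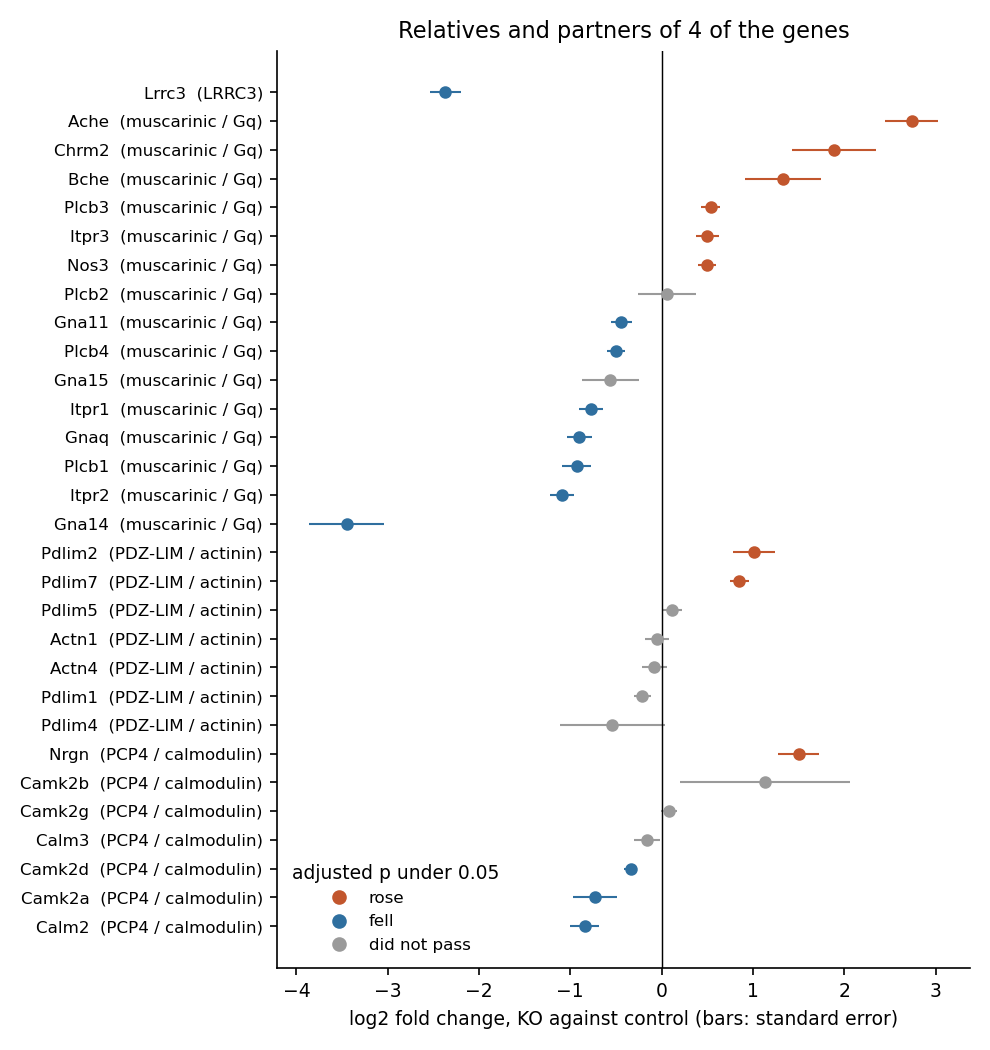
Log2 fold change, KO against control, of tested relatives and partners of Lrrc3b, Chrm3, Pdlim3 and Pcp4l1 (points; bars are standard errors), coloured by whether the adjusted p was under 0.05. Ache at 2.74 and Gna14 at -3.45 mark the extremes. All changes are smaller in size than those of the 4 genes themselves, which were chosen by their change.

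Of the other PDZ-LIM genes, Pdlim7 rose 1.8-fold, from 84 ± 8.33 to 151 ± 13 CPM (edgeR adjusted p = 0.000273), and Pdlim2 rose 2.01-fold to 4.66 ± 0.945 CPM. The Pdlim2 call was lost when KO 1 and KO 4 were left out together, at an adjusted p of 0.0568 (0.000444 to 0.0568 over all settings). Pdlim1, at 149 and 129 CPM, Pdlim5, at 151 and 164 CPM, and Pdlim4, at 0.557 and 0.376 CPM in control and KO, did not pass. Ldb3, a Z-disc relative, had 13 counts in all. The alpha-actinins that Pdlim3 can bind were present in both groups as the non-muscle forms: Actn4 at 805 ± 48.4 and 763 ± 109 CPM and Actn1 at 81.7 ± 13.4 and 78.9 ± 9.57 CPM, neither of which passed. The muscle forms Actn2 and Actn3 had 1 and 14 counts over all libraries.

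Pcp4, the closest relative of Pcp4l1, had 0 counts in all 7 libraries, and Gap43, another small calmodulin-binding protein of neurons, had 13. Nrgn, the neuronal IQ protein neurogranin, was present in controls and rose 2.84-fold, from 18.8 ± 2.29 to 53.2 ± 16.4 CPM (log2 fold change 1.5, SE 0.222, edgeR adjusted p = 0.000742). Of the calmodulin genes, Calm2 fell 1.79-fold, from 856 ± 178 to 478 ± 52.7 CPM, while Calm3 did not pass. Of the calmodulin-dependent kinase subunits, Camk2d fell 1.27-fold, a call lost with library totals as the scale. Of the 8 tested genes of this list, 1 rose and 4 fell.

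Mcf2, the namesake of the Dbl family and a relative of Mcf2l, had 1 count in all. Among 25 tested exchange factors and small GTPases, 5 rose and 10 fell, with a median log2 fold change of -0.2. The largest rise was that of Ect2, an exchange factor of dividing cells, from 3.27 ± 1.35 to 16 ± 2.08 CPM (4.9-fold, edgeR adjusted p = 0.000139). Plekhg1 fell 2.13-fold to 191 ± 20.6 CPM, Arhgef11 fell 1.75-fold and Plekhg5 rose 2.06-fold to 173 ± 17.2 CPM. Of the small GTPases, Cdc42 fell 1.69-fold, from 502 ± 17.5 to 297 ± 55.4 CPM, and Rac1 fell 1.62-fold. Rhob, the most abundant of those listed, rose 1.84-fold, from 1738 ± 94.6 to 3203 ± 686 CPM (edgeR adjusted p = 0.00469). Rhoa did not pass, at 313 ± 5.42 and 244 ± 43 CPM (edgeR adjusted p = 0.0582), a result that changed in 5 of 18 settings.

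Of the known partners of CD24, 9 were tested, 1 rose and 3 fell. L1cam, a neural adhesion molecule, rose 3.96-fold but reached only 0.987 ± 0.247 CPM. Selp, the P-selectin of endothelium for which CD24 can serve as a ligand, fell 2.13-fold, from 40.4 ± 11.8 to 19 ± 4.72 CPM (edgeR adjusted p = 0.00398). Hsp90b1 fell 1.34-fold and Lyn fell 1.3-fold, calls lost in 2 and 8 of 18 settings. Siglecg, an inhibitory receptor that binds CD24 on leukocytes, had 33 counts in all and was not tested.

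Genes next to the 6 on the chromosome were also tested, as protein-coding genes within 500 kb of the gene body. Of 79 such genes, 59 were tested, 13 rose, 14 fell and 32 did not pass, with a median log2 fold change of -0.03. For this window of 500 kb, both counts are close to the 23% of all genes that rose and the 22.2% that fell. The count of rising neighbours was 8 with the replicate number as a block and 5 without KO 1 and KO 4. Leaving out control 2, control 3, KO 1 or KO 2 gave 6, 7, 8 and 8 rising neighbours. Over all genes tested fewer rose too, at 2379, 2806, 3041 and 3085 in that order, against 3561. With the block 2542 rose over all genes, and without KO 1 and KO 4 2234 rose. Every tested neighbour changed by less than the gene it lies beside, which follows largely from the choice of the 6 genes by their change.

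Of the nearest protein-coding genes on either side, 1 passed the test. Lrrc3b lies in a gene-poor region, with Nek10 345 kb to one side, at 3 counts in all, and Oxsm 800 kb to the other, at 4.44 and 3.6 CPM, which did not pass. Chrm3 lies between Zmynd11, at 194 and 173 CPM, which did not pass, and Ryr2, with 2 counts. Pdlim3 lies between Sorbs2, at 2.19 and 2.68 CPM, which did not pass, and Ccdc110, with 15 counts, all in KO libraries. On one side of Pcp4l1 the nearest gene was Nr1i3, with 50 counts, under the filter. Mcf2l lies between Atp11a, 5.08 kb away, and F7, 5.13 kb away, neither of which passed. Of the neighbours of Cd24a, 1700021F05Rik did not pass and Qrsl1, 290 kb away, rose 1.3-fold (edgeR adjusted p = 0.0285), a call lost in 6 of 18 settings.

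**Figure D5:**
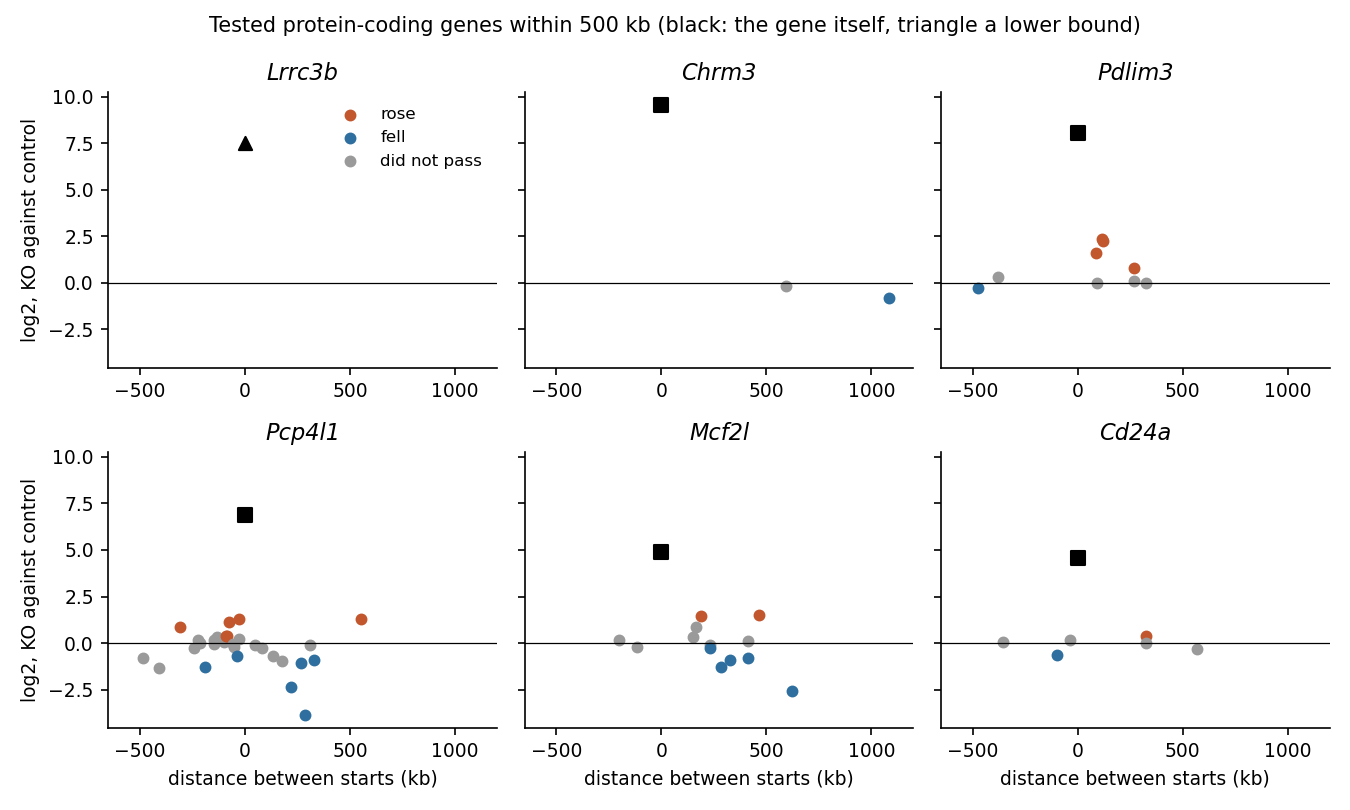
Log2 fold change, KO against control, of tested protein-coding genes within 500 kb of each gene body, against the distance between starts in kb along the strand of the gene (negative values upstream); black marks are the gene itself, with a triangle for the lower bound of Lrrc3b. The neighbours lie between -3.88 and 2.34, and each black mark lies above all of them, as the genes were chosen for a large rise.

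Near Pdlim3, 4 of 9 tested neighbours rose, against 23% of all genes, and whether this share differs was not tested. One of the 4, 1700029J07Rik, lost its call in 9 of 17 settings. On its downstream side Ankrd37 rose 4.73-fold, from 0.581 ± 0.147 to 2.76 ± 0.87 CPM (edgeR adjusted p = 0.000665), and Lrp2bp rose 5.06-fold to 0.634 ± 0.172 CPM, a call lost in 1 of 17 settings. Snx25, a sorting nexin 114 kb away, rose 1.72-fold to 63.4 ± 3.75 CPM. Near Pcp4l1, 6 of 29 rose and 6 fell, the falls led by Fcrlb (14.7-fold lower, to 1.31 ± 0.603 CPM) and Fcgr2b, the inhibitory IgG receptor of sinusoidal endothelium (5.2-fold lower, to 865 ± 191 CPM). Near Mcf2l, 2 of 13 rose and 5 fell, the falls led by Gas6, a ligand of TAM receptors, from 747 ± 37.3 to 125 ± 37.2 CPM (5.98-fold). Apoa2 beside Pcp4l1 and Proz beside Mcf2l, both typical of hepatocytes, rose 2.45-fold and 2.73-fold, calls lost in 8 and 9 of 18 settings. Hepatocyte markers were higher in the same libraries (1444 CPM in KO 1), and their part in these 2 rises was not tested.

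Transcripts annotated across the same ground as 3 of the genes were read as well. B230110C06Rik, on the opposite strand at the start of Lrrc3b, had 0 counts in every control and 48, 18, 38 and 41 counts in KO 1 to 4. Gm47405, within an intron of Chrm3 on the same strand, had 0 counts in every control and 30, 3, 21 and 25 counts in KO. Gm26861, on the strand opposite to Chrm3, had 0 counts in controls and 14, 3, 4 and 5 in KO. B230110C06Rik and Gm47405 were highest in KO 1 and lowest in KO 2, as was Lrrc3b. Gm15347, on the strand opposite to Mcf2l, had 25, 19 and 30 counts in controls and 54, 45, 36 and 46 in KO and did not pass (edgeR adjusted p = 0.174). The labels name both a stranded and an unstranded library kit, and the strand setting of the counting is not given, so reads of these transcripts and of the gene they overlap cannot be told apart. As Lrrc3b and Chrm3 were chosen by their change, no test is given for the transcripts that overlap them.

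The genes whose levels most resembled each of the 6 were found by the root mean square difference of log2(CPM + 1) over the 7 libraries. Chrm3 and Pdlim3 were alike (0.385), and both were closest to Gdf10, a secreted growth factor related to BMPs (0.261 and 0.373), at 0.289 ± 0.113 CPM in controls and 53.9 ± 14.5 CPM in KO. Ly6c1, a surface antigen of capillary endothelium, was the third for both (0.504 and 0.457) and the closest for Pcp4l1 (1.15). Lrrc3b was closest to Mcf2l (0.654), Tcf15 (0.67) and Slc43a1 (0.72). Tcf15, a helix-loop-helix factor at 0.38 ± 0.0462 CPM in controls and 12.8 ± 2.97 CPM in KO, did not meet both limits in every library. Mcf2l was closest to Dtl (0.44), Spc24 (0.455) and Pclaf (0.459), genes of DNA replication and chromosome segregation. Cd24a was closest to Rtn4rl1 (0.542), Map3k5 (0.638) and Aurkb (0.661). These distances weigh level as well as pattern, so genes of similar level in KO come out as alike.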

How the data were processed

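RNA of sorted mouse liver endothelial cells was measured in 3 control and 4 c-Maf KO libraries, grouped by the labelled genotype. The authors deposited unnormalized read counts, 1 row per Ensembl gene. The submitters' processing notes list FastQC 0.11.5, STAR 2.7.6a and build GRCm38. Counting tool, annotation and strand setting: not given in the sources used here. Of 52636 IDs, 52403 matched a symbol in GENCODE mouse release M21, the source of gene coordinates on the same build. Promoter sequences are RefSeq's.

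Low counts were removed by edgeR 4.0.16 (filterByExpr, minimum count 10, minimum total 15, under R 4.3.3). TMM factors (trimmed means of M-values) scaled the libraries and every CPM given. KO was tested against control without covariates by the quasi-likelihood F-test, and p-values were adjusted over all 15512 genes after Benjamini and Hochberg, with 0.05 as threshold. Fold changes of tested genes are edgeR's, and ratios of the 6 genes are ratios of mean CPM. Intervals and count limits cover counting error only, as the reads carry no molecular identifiers and can be copies. Tests were tried on simulated data.

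The 6 genes, the lists and the tests were chosen with earlier results of these data known. Named were the 6 genes, the genes nearest to the limits, the 3 most alike in level, the nearest neighbours, the close families in full and up to 4 other genes per list with the smallest p. Other neighbours, single markers, overlapping transcripts, further list members and the genes listed beside the 6 by rank were named after their values were seen. Some genes taken by this rule are not reported here. The labels do not say whether replicate numbers pair the libraries, though same-numbered libraries share a lane. Deviations of same-numbered pairs correlated at -0.0235, 0.182 and 0.0398, against -0.211 to 0.182 over all control and KO pairs. With 3 or 4 libraries per group these values cannot decide it. Within groups, libraries differed beyond sampling noise (chi-square divided by its degrees of freedom, 13.77 to 106.5). Alternatives were other scalings and filters, DESeq2 1.42.0, limma-voom (limma 3.58.1), lane as covariate or lane 5 alone, the replicate block, each library left out, and other limits and windows.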

Additional observations from a re-analysis of the deposited data

Results flagged for a closer look

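One value among the results stood apart from the other libraries of its group. Chrm3 in KO 2 was at 36.7 CPM, and its gap to the next KO library took up 0.883 of the range of the 4 KO libraries. Of 14 genes examined in this way (the 6 genes, their tested nearest neighbours and Maf), this was the only one past the 95% limit of Dixon's test for 4 libraries. Chance passes that limit in about 1 in 20 groups. Without KO 2, all 6 genes still met both limits, an outcome that their choice by these limits nearly fixed in advance.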

How the results depend on the processing

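All 6 genes met both limits in every setting in which they were recounted except 4. Those were lane 5 alone, without KO 1, without KO 4, and without both. In these Mcf2l missed the 10 CPM limit, at 9.661 to 9.947 CPM, and 5 genes were left. As the genes were chosen by these limits, leaving libraries out could change this only through rescaling. The log2 ratios of means moved by less than the spread of the KO libraries in all settings except 2 of Pdlim3, which was at 8.16 under upper-quartile scaling and at 8.299 under library totals, against 8.034. The count of genes meeting both limits, 42, was 86 in lane 5 alone and 42 to 78 with one library left out, the highest without control 3. It was 6 and 115 with control limits of 1 and 5 CPM, and 120 and 9 with KO limits of 5 and 20 CPM. With library totals 6373 genes rose and 1976 fell, and 22 neighbours rose. The median log2 fold change of all genes was 0.0433 with TMM, 0.02 under DESeq2 factors, 0.169 under upper-quartile factors and 0.308 under library totals. In the same order, 50.8%, 48.3%, 63.4% and 76.3% of calls were rises. Without KO 1 and KO 4, an alternative chosen after seeing the data, 2234 genes and 5 neighbours rose. Rising neighbours numbered 8 in lane 5 alone, 8 with the replicate block, and 6 to 12 with one library left out. Over all genes tested, 3069, 2542 and 2379 to 3769 rose, in that order. With windows of 100 and 1000 kb, 8 and 21 neighbours rose and 3 and 25 fell. These windows hold fewer and more genes than the 59 tested within 500 kb. The numbers tested in them are not given here, so these counts cannot be set against the shares of all genes. Counts of relatives stayed at 12 to 20 rising and 18 to 27 falling (15 and 19 with the replicate block). Of 40 calls among relatives 31 held in all alternatives, and of 27 among neighbours 14. The cause of these shifts was not tested. Control counts of 0 to 7 per library limit the ratios of Lrrc3b, Chrm3 and Pdlim3 most.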
